A study of Arabidopsis thaliana with 12 samples.

Results

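In the first leaf of Arabidopsis thaliana seedlings, 53 of 34133 gene identifiers were at 5 FPKM or more in all 4 Col-0 libraries and at or below 0.1 FPKM in both libraries of Aa-0, of Per-1, or of each. FPKM is the number of sequenced fragments of a transcript, corrected for its length and for the size of the library. Of these near-zero genes, 14 were near zero in Aa-0 only, 17 in Per-1 only and 22 in both accessions, from 10561 genes that reached the Col-0 threshold. Parental values chose the genes, so the gap between Col-0 and an accession is given as a description and was not tested. The hybrid libraries took no part in the choice.

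The plants were untreated 14-day-old seedlings grown on MS plates with 1% sucrose. Col-0, the accession behind the reference genome, gave 4 libraries, and the natural accessions Aa-0 and Per-1 gave 2 each. There were 2 libraries of Col-0×Aa-0 and 2 of Col-0×Per-1, hybrids that carry a Col-0 genome beside that of the other accession. The series design speaks of Ler-1, but the sample labels of Per-1, and samples were named by their labels. Nothing in the labels ties replicates to separate plants, and the p-values therefore measure spread between these libraries that may be technical.

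Natural accessions of Arabidopsis differ in gene content as well as in sequence. Immune receptors of the NLR class, which detect pathogen effectors through a nucleotide-binding and a leucine-rich repeat domain, are among the genes known to vary between accessions by presence, as are tandem gene clusters, transposons and other repeats. A hybrid receives a haploid genome from each parent, so a gene transcribed from the Col-0 copy alone, at the rate that copy has in Col-0, gives a hybrid to Col-0 ratio of 0.5. Values near zero were measured on the TAIR10 genome, which is that of Col-0. A gene without transcript and a gene whose fragments did not match that genome cannot be told apart in these files.

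The tissue label was checked with marker genes. All 7 mesophyll markers (photosynthesis genes) lay between 943 and 6595 FPKM in every library, while the 3 shoot meristem markers stayed at or below 0.08, the 4 root markers at or below 3.16 and the 2 seed markers were listed at 0. In these whole leaves, fewer cells of a type and less RNA per cell cannot be told apart. Col-0 replicates 1 and 2 stood apart from replicates 3 and 4, the pairs not overlapping for 60.9% of the 17203 genes tested and for 28 of the 53 near-zero genes. The gap exceeded 1.5-fold for 8 of them, as it did for 19.9% of all genes tested, among these the wall-associated kinase WAK2 and the thionin AT1G66100. Counts are therefore also given with each pair as the only Col-0 libraries. Relative to Col-0, the median of all genes tested was -0.10 on the log2 scale in Col-0×Aa-0 and -0.23 in Col-0×Per-1, and members are read against those shifts.

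Most near-zero genes were protein-coding, and the others were of kinds rare among expressed Col-0 genes. RNAs that code for no protein made up 9 of 53 (16.98%), against 43 of 10561 (0.407%) at the Col-0 threshold. Pseudogenes, which in the annotation include transposon remnants, made up 5 of 53 (9.43%), against 22 of 10561 (0.208%). The remaining 38 matched members were protein-coding (71.7%, against 98.6%), and the identifier AT5G55896.1 had no match. No test was made of these shares, because the members were chosen by their values.

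By family, near-zero genes were 0.502% of all genes at the Col-0 threshold. They were 3 of 48 NLR receptors (6.25%): AT1G62630 in Aa-0 only, AT5G43740 in Per-1 only and AT1G63880 in both. Leucine-rich repeat proteins without a kinase gave 2 of 29 (6.90%), and F-box proteins, which select substrates for ubiquitination, gave 3 of 49 (6.12%). The 3 F-box genes have identical products and lie in 1 stretch of chromosome 1, so their share is not read as a trait of the family. Receptor-like kinases gave 2 of 84 (2.38%), and proteins of unknown function, a heading that also caught the pseudogenes, gave 17 of 811 (2.096%). Defensins, thionins and other small secreted peptides gave 1 of 131 (0.763%), near the share of all genes. So did ubiquitin-like proteins, with 1 of 246 (0.407%), and other protein kinases, with 1 of 221 (0.452%), which was the receptor-like kinase AT1G11280 counted again. Among 394 transcription factors, 58 cytochromes P450, 55 UDP-glycosyltransferases, 47 pentatricopeptide repeat proteins, 128 methyltransferases and 16 glucosinolate genes there were 0 near-zero genes. At the share of 0.502%, sets of these sizes would hold few such genes or 0, so this is not read as a trait of the families. The headings follow product names, so they missed the NLR-LIM gene DAR4, the nucleotide-binding protein AT5G45490, the subtilase AT4G21650, the cystatin-like AT5G05060 and the defensin-like AT2G43550.

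**Figure D1:**
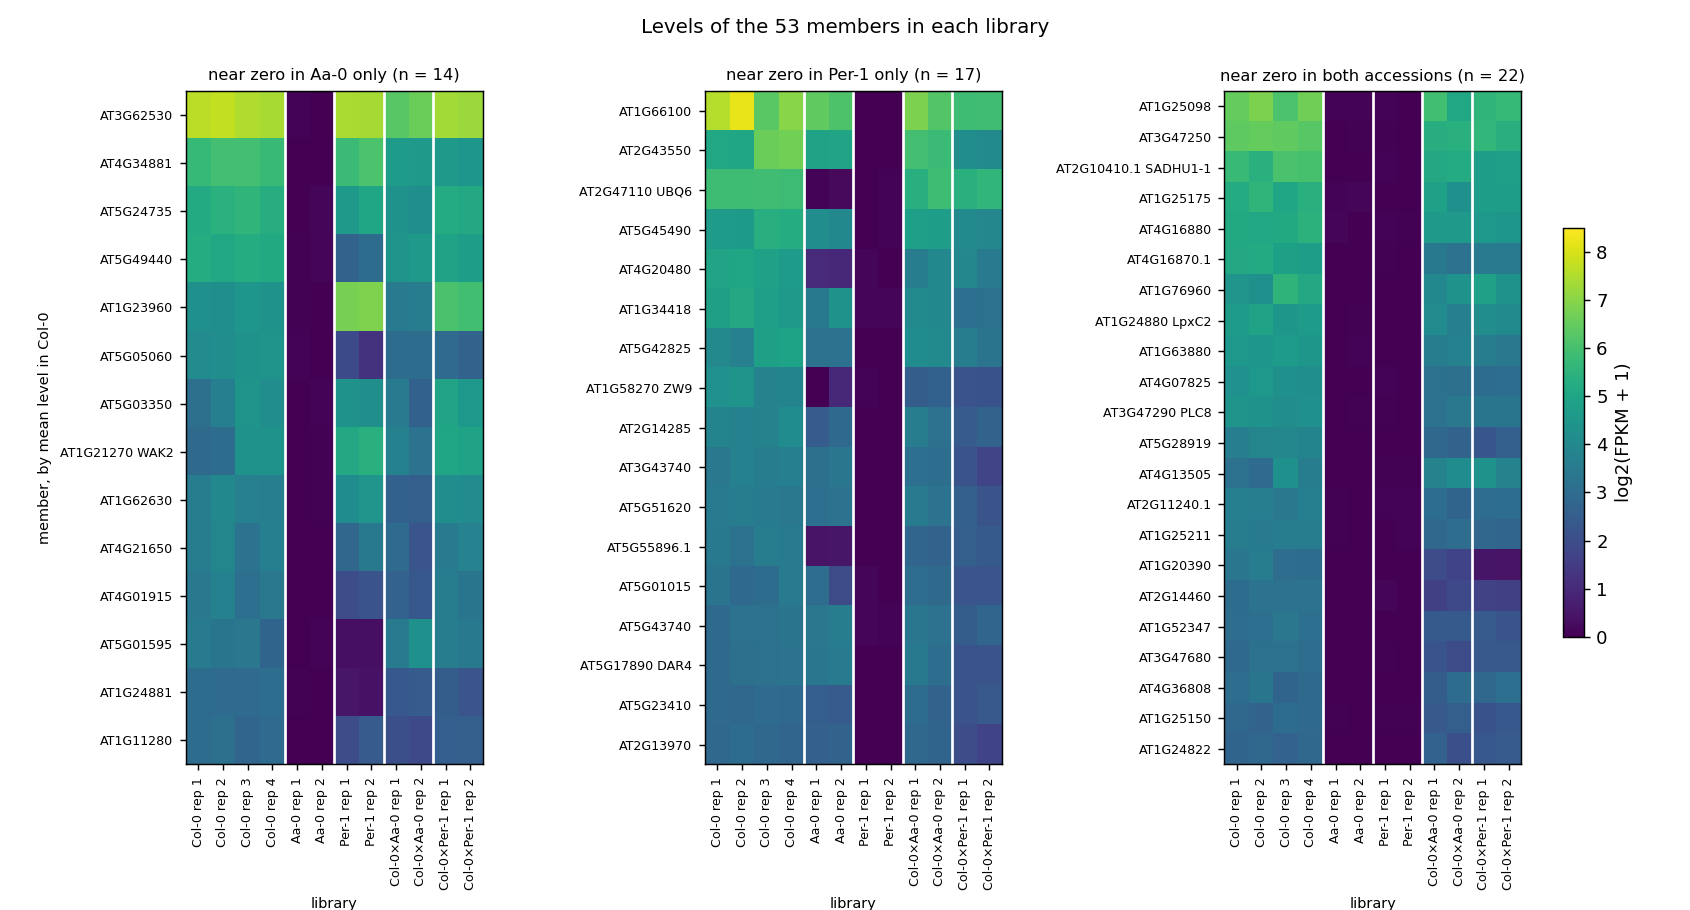
Level of each of the 53 near-zero genes (rows) in each of the 12 libraries (columns) as log2(FPKM + 1), in panels of 14 genes near zero in Aa-0 only, 17 in Per-1 only and 22 in both. The dark columns are the accession libraries that chose the genes, and hybrid libraries of the same cross are lighter than those columns and, for most genes, darker than Col-0.

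Several of the 14 genes near zero in Aa-0 only were strongly expressed in the other parents. AT3G62530, an ARM repeat protein, was at 198, 208, 178 and 167 FPKM in Col-0, against 0.05 and 0 for Aa-0, 170.5 and 164 for Per-1, with 76.7 and 94.3 for Col-0×Aa-0 and 158 and 147 for Col-0×Per-1. Both Col-0×Aa-0 libraries lay below every Col-0, Per-1 and Col-0×Per-1 library. AT1G23960, of unknown function, was at 17.9 to 21.0 FPKM in Col-0, against 0.04 and 0 for Aa-0, 108 and 115 for Per-1, with 10.4 and 10.8 for Col-0×Aa-0 and 66.3 and 59.9 for Col-0×Per-1. Its levels therefore spread in the order Per-1, Col-0×Per-1, Col-0, Col-0×Aa-0 and Aa-0, with no overlap between groups. Its annotated neighbour AT1G23950, of the same family, was at 11.9 to 16.3 in Col-0, against 11.5 and 9.28 for Aa-0 and 55.1 and 48.9 for Per-1.

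The CC-type NLR gene AT1G62630 was at 10.98, 14.5, 11.99 and 11.4 FPKM in Col-0, against 0.02 and 0.04 for Aa-0 and 16.4 and 20.6 for Per-1. The hybrids did not overlap, with 5.18 and 5.02 for Col-0×Aa-0 and 17 and 16.2 for Col-0×Per-1. WAK2, a pectin-binding receptor kinase of the cell wall, was at 6.71, 7.03, 19.6 and 19.4 in Col-0, listed at 0 and at 0.04 in Aa-0, and at 33.9 and 40.7 in Per-1. Its Col-0×Aa-0 libraries (12.4 and 8.40) fell inside the Col-0 range, between its separate pairs of replicates 1 and 2 and 3 and 4, and its Col-0×Per-1 libraries (31.3 and 29.1) lay above it. AT5G03350, a legume lectin, had a similar gap (7.84 and 11.7 against 20.3 and 16.96 in Col-0).

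AT1G11280, a receptor kinase with an S-locus lectin domain, was at 6.98, 7.78, 5.88 and 6.80 FPKM in Col-0, at 0.02 in both Aa-0 libraries, and at 3.05 and 4.40 in Per-1. Its hybrid libraries, 3.22 and 2.69 for Col-0×Aa-0 and 4.75 and 4.92 for Col-0×Per-1, all lay below Col-0. The subtilase AT4G21650, of a family of secreted proteases, was at 8.34 to 14.1 in Col-0, listed at 0 in Aa-0, and at 6.02 and 9.89 in Per-1. It was at 6.81 and 3.75 in Col-0×Aa-0, below every Col-0 library, and at 10.2 and 12.6 in Col-0×Per-1, inside the Col-0 range. AT4G01915, of unknown function, was at 7.54 to 12.2 in Col-0, listed at 0 in Aa-0, and at 3 and 3.56 in Per-1.

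Per-1 itself was low for part of this class. AT5G49440, of unknown function, was at 32.2 to 37.7 FPKM in Col-0 but at 5.49 and 7.01 in Per-1. The cystatin-like gene AT5G05060 was at 16.4 to 19.9 in Col-0 and at 2.78 and 1.37 in Per-1, and both hybrids were alike (6.99 and 7.03 in Col-0×Aa-0, 6.82 and 5.52 in Col-0×Per-1). Its product is 95.3% identical to that of AT5G05040, so its fragments could have been split between the copies. The non-coding RNA AT5G24735 was at 22.5 and 31.7 in Per-1 against 35.7 to 46.3 in Col-0. Over the class, the Per-1 to Col-0 ratio ran from 0.0320 to 5.83 with a median of 0.684, against 0.853 over all genes at the Col-0 threshold.

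AT4G34881, of unknown function, was low in both hybrids but in 1 parent only. It was at 51.3, 61.1, 60.6 and 51.6 FPKM in Col-0, listed at 0 in both Aa-0 libraries, and at 54.7 and 67.9 in Per-1. Yet Col-0×Per-1 was at 22.9 and 21.2, as low as Col-0×Aa-0 at 24.4 and 22.8, and below all Col-0 and Per-1 libraries. The Col-0×Per-1 mean lay 1.37 log2 units (SE 0.12) below the mid-parent, the mean of Col-0 and Per-1, and was called lower there and in all 20 alternatives (limma). Aa-0 values and the Col-0 threshold had made it a member, and as Col-0 enters this mid-parent the call is a description. The gene overlaps XDH1, the purine-degrading xanthine dehydrogenase, which was at 16.97 to 24.8 in Col-0, 16.9 and 16.6 in Per-1, and 18.5 and 16.7 in Col-0×Per-1. Its part in the result was not tested.

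Among the 17 genes near zero in Per-1 only, a thionin gene and a defensin-like gene had the highest mean Col-0 levels. The thionin AT1G66100, of an antimicrobial family, was at 188, 297, 79.6 and 127 FPKM in Col-0, listed at 0 in Per-1, at 84.0 and 68.6 in Aa-0, and at 56.9 and 58.8 in Col-0×Per-1. The defensin-like AT2G43550 was at 32.7, 31.3, 94.3 and 102 in Col-0, listed at 0 in Per-1, at 28.5 and 30.3 in Aa-0, with 61.7 and 54.4 for Col-0×Aa-0 and 17.02 and 15.9 for Col-0×Per-1. Both genes had the Col-0 gap, in opposite directions, and both Col-0×Per-1 libraries of each lay below every Col-0 library.

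DAR4, also known as CHS3, encodes a TIR-type NLR joined to a LIM domain and works with CSA1, the NLR gene beside it. DAR4 was at 6.66, 7.78, 8.30 and 8.40 FPKM in Col-0, listed at 0 in Per-1, at 9.06 and 10.3 in Aa-0, at 9.80 and 7.49 in Col-0×Aa-0, and at 3.65 in both Col-0×Per-1 libraries. Its neighbour AT5G17880 (CSA1) was at 4.12 to 6.30 in Col-0, listed at 0 in Per-1 and at 2.30 and 2.28 in Col-0×Per-1, but reached 15.1 and 18.2 in Aa-0 and 11.6 and 9.38 in Col-0×Aa-0. The pair was thus near zero together in Per-1. CSA1 is no member only because 2 of its Col-0 libraries missed the 5 FPKM threshold.

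The CC-type NLR gene AT5G43740 was at 6.66 to 8.59 FPKM in Col-0, 0.09 and 0.06 in Per-1, and 4.63 and 5.80 in Col-0×Per-1. AT5G45490, with a nucleotide-binding domain, was at 24.6, 24.1, 40.5 and 37.8 in Col-0, listed at 0 and at 0.06 in Per-1, and at 15.8 and 14.2 in Col-0×Per-1. The leucine-rich repeat protein AT3G43740 was at 9.46 to 12.4 in Col-0, listed at 0 in Per-1, at 7.87 and 9.07 in Aa-0, and at 3.55 and 2.42 in Col-0×Per-1. For all 3, both Col-0×Per-1 libraries lay below the lowest Col-0 library. AT5G43740 overlaps AT5G43745, and AT5G45490 overlaps both AT5G45472 and AT5G45480.

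Another 7 genes of this class were at 5.80 FPKM or more in every Col-0 library. AT5G42825, of unknown function, was at 15.02, 12.1, 27.7 and 29.2 FPKM in Col-0, listed at 0 in Per-1, at 7.96 and 8.17 in Aa-0, and at 10.99 and 8.72 in Col-0×Per-1. AT2G14285, a small nuclear ribonucleoprotein of the splicing machinery, was at 12.2 to 16.6 in Col-0, listed at 0 in Per-1, at 4.52 and 6.51 in Aa-0, and at 4.44 and 5.60 in Col-0×Per-1. Its product is identical to that of AT4G30220, so its value as a single copy is uncertain. AT5G51620, AT5G55896.1, AT5G01015, the non-coding RNA AT5G23410 and the pseudogene AT2G13970 lay between 5.80 and 10.99 in every Col-0 library, at no more than 0.10 in Per-1 and between 2.25 and 5.16 in Col-0×Per-1.

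Aa-0 values of this class ran from near zero to the Col-0 level. The TRAF-like gene ZW9 was at 13 to 19.9 FPKM in Col-0, 0.07 and 0 in Per-1, and 0 and 0.94 in Aa-0. AT4G20480, annotated as a putative endonuclease or glycosyl hydrolase, was at 24.6 to 32.0 in Col-0 and at 1.03 and 0.96 in Aa-0. The polyubiquitin gene UBQ6 was at 56.1 to 58.9 in Col-0, listed at 0 and at 0.06 in Per-1, and at 0.07 and 0.15 in Aa-0, just past the threshold. The non-coding RNA AT1G34418 was at 22.6 to 34.2 in Col-0 and at 9.80 and 19.7 in Aa-0. Over the class the Aa-0 to Col-0 ratio ran from 0.00191 to 1.28 with a median of 0.497, against 0.898 over all genes at the Col-0 threshold.

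Of the 22 genes near zero in both accessions, the highest in Col-0 was the non-coding RNA AT1G25098, at 88.3, 113, 67.6 and 101 FPKM, with 0.06 and 0.07 in Aa-0 and 0.07 and 0 in Per-1. AT3G47250, a membrane protein of the DUF247 family, was at 76.9 to 89.4 in Col-0, no more than 0.03 in either accession, with 38.6 and 41.1 for Col-0×Aa-0 and 48.4 and 39.4 for Col-0×Per-1. The phospholipase C gene PLC8, also on chromosome 3, was at 17.3 to 19.9 in Col-0, no more than 0.03 in either accession, and between 8.21 and 9.59 in all 4 hybrid libraries. For both genes the hybrids were tight and did not overlap Col-0.

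The TIR-type NLR gene AT1G63880, annotated as effective against the fungus Leptosphaeria maculans, was at 21.1 to 24.6 FPKM in Col-0. It was at 0 and 0.05 in Aa-0, listed at 0 in Per-1, with 10.9 and 12.2 for Col-0×Aa-0 and 11.1 and 9.62 for Col-0×Per-1. AT4G16880, a leucine-rich repeat protein, and the pseudogene AT4G16870.1 lie in the cluster of TIR-type NLR genes that holds RPP4 and SNC1. AT4G16880 was at 32.9 to 43.2 in Col-0, no more than 0.10 in either accession, and 21.2 to 23.3 in the hybrids, while AT4G16870.1 was at 25.6 to 35.4, no more than 0.03, and 8.04 to 10.4. The receptor genes beside AT4G16880 had lower values in the accessions than in Col-0 but were not near zero. RPP4 was at 41.2 ± 6.59 (SD, n = 4) in Col-0, against 17.4 and 22.2 for Aa-0 and 24.0 and 22.2 for Per-1. SNC1 was at 55.4 ± 3.94 (SD, n = 4) in Col-0, against 18.3 and 21.9 for Aa-0 and 25.7 and 27.9 for Per-1. The product of AT4G16880 is 84.4% identical to that of AT4G16940, an NLR gene of the cluster, and counts of such relatives are uncertain.

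Repeats were part of this class too. The Sadhu retrotransposon SADHU1-1 (AT2G10410.1) was at 40.8 to 66.4 FPKM in Col-0, listed at 0 in Aa-0, 0.05 and 0 for Per-1, with 34.3 and 36.1 for Col-0×Aa-0 and 25.5 and 26.9 for Col-0×Per-1. The pseudogene AT1G20390 was at 9.22, 10.95, 7.15 and 6.95 in Col-0 and listed at 0 in all 4 accession libraries. It was at 2.81 and 2.27 in Col-0×Aa-0 but at 0.39 and 0.35 in Col-0×Per-1, so the hybrids separated clearly. AT2G14460, of unknown function, was at 7.03 to 8.45 in Col-0, no more than 0.10 in the accessions and 2.02 to 2.68 in the hybrids.

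Another 6 genes of this class, outside the LpxC stretch of chromosome 1, were at no more than 0.07 FPKM in the accessions. AT1G76960, of unknown function, was at 20.6, 18.2, 45.7 and 34.3 FPKM in Col-0, listed at 0 in all accession libraries, and at 14.8 to 27.97 in the hybrids, so that its groups overlapped. AT4G07825 was at 17.97 to 22.4 in Col-0 and 6.94 to 8.27 in the hybrids, and AT5G28919 at 11.4 to 14.3 and 3.83 to 6.36. The DNA-binding protein AT3G47680 was at 6.42 to 8.20 and 2.88 to 4.18, the pseudogene AT2G11240.1 at 9.55 to 11.7 and 5.61 to 7.48, and the non-coding RNA AT1G52347 at 7.16 to 9.33 and 3.64 to 4.45. In these 5 genes every hybrid library lay below every Col-0 library.

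The thresholds fell between genes of similar values. Just inside 0.1 FPKM were AT4G16880 (0.10 and 0) and AT5G24735 (0 and 0.09) in Aa-0, and AT1G34418 (0.10 and 0.09) and AT2G14460 (0.10 and 0) in Per-1. Just outside were the helper NLR gene ADR1 (0.07 and 0.12) and UBQ6 (0.07 and 0.15) in Aa-0, and AT2G25510 (0.18 and 0) and AT4G16400 (0.21 and 0.15) in Per-1. At the Col-0 threshold, the lowest Col-0 library was at 5.44 for AT1G24822 and 5.48 for AT1G25150 inside, and at 4.99 for AT5G39160 and 4.88 for AT2G15292 outside. Both Aa-0 libraries were listed at 0 for 15 of the 36 genes near zero in Aa-0, and both Per-1 libraries for 19 of the 39 near zero in Per-1. An exact 0 may also be a failed estimate.

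A stretch of chromosome 1 from AT1G24792 to AT1G25211 held 7 of the near-zero genes. It holds tandem copies of LpxC, annotated as a deacetylase related to the bacterial enzyme of lipid A synthesis, and of F-box genes. LpxC2 was at 24.2, 28.9, 21.5 and 24.95 FPKM in Col-0, against 0 and 0.04 for Aa-0, listed at 0 in Per-1, with 15.99 and 11.75 for Col-0×Aa-0 and 16.8 and 15.2 for Col-0×Per-1. The other members there were AT1G24822, the F-box genes AT1G24881 (Aa-0 only), AT1G25150 and AT1G25211, and the non-coding RNAs AT1G25098 and AT1G25175. AT1G25175 was at 31.9 to 45.9 in Col-0, no more than 0.08 in either accession and 18.03 to 28.1 in the hybrids. AT1G25211 was at 10.6 to 11.2 in Col-0 and 5.78 to 7.28 in the hybrids, AT1G25150 at 5.48 to 6.94 and 3.37 to 5.01, AT1G24822 at 5.44 to 6.30 and 3.19 to 5.31, and AT1G24881 at 6.84 to 7.46 and 3.74 to 4.65. No hybrid library of these 4 genes reached the lowest Col-0 value.

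Most of their neighbours that Col-0 expressed had the same pattern. Of 30 annotated genes of the stretch with values, 15 had a Col-0 mean of 1 FPKM or more, the 7 members among them. At or below 0.1 in all 4 accession libraries were 12 of the 15, in part members that the rule had placed there. Apart from members, these were LpxC1, AT1G24996, LpxC3, AT1G25097, LpxC4 and LpxC5. LpxC1 had a mean of 4.73 in Col-0, 2.78 in Col-0×Aa-0 and 2.56 in Col-0×Per-1, and LpxC5 had means of 4.11, 2.41 and 1.84. The exceptions were AT1G24881, AT1G25055 and the F-box gene AT1G24800, the last with a mean of 10.6 in Col-0, against 0.560 for Aa-0 and 0.395 for Per-1. The products of AT1G24881, AT1G25150, AT1G25211, AT1G24800 and AT1G25055 are identical over their full length, so the values of the single copies are uncertain. That also holds for AT1G24881 as a gene of the Aa-0 only class, with 0.42 and 0.33 FPKM in Per-1. Of the genes under 1 FPKM in Col-0, 3 glutamine amidotransferase genes went the other way. AT1G25155 had a mean of 0.01 in Col-0, 1.04 in Aa-0 and 2.01 in Per-1, AT1G25083 had 0.045, 1.46 and 1.55, and AT1G24909 had 0.703, 1.37 and 1.68. These 3 were chosen after their values were seen, and the bounds of the stretch were set after its values were seen.

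**Figure D2:**
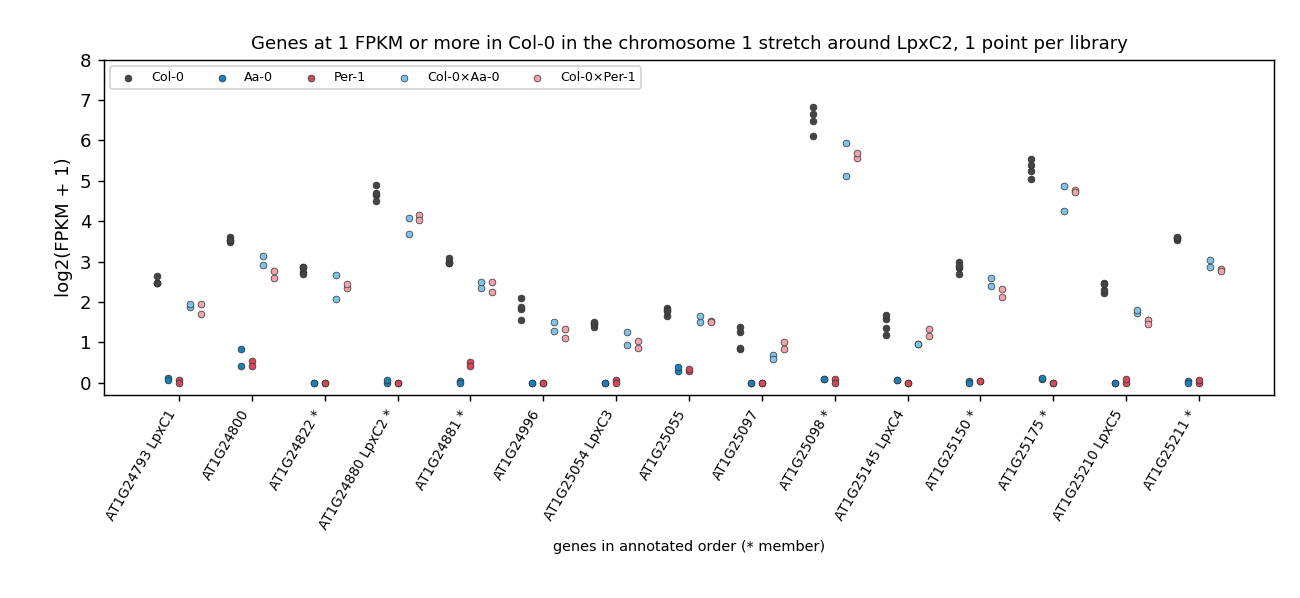
Levels as log2(FPKM + 1) of the 15 genes with a Col-0 mean of 1 FPKM or more in the chromosome 1 stretch around LpxC2, in annotated order, 1 point per library and a colour per group, members starred. In 12 of the 15 genes all 4 accession libraries were at or below 0.1 FPKM, and the hybrid libraries lay between these and Col-0 or among the Col-0 values. Starred members were near zero in an accession by the rule that chose them.

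Genes adjacent to members were also examined, without a test. Of 24 members near zero in Aa-0 with a directly adjacent gene at 1 FPKM or more in Col-0, 6 (25%) had such a neighbour at or below 0.1 in both Aa-0 libraries, against 90 of 8887 (1.01%) of all genes at the Col-0 threshold. In Per-1 it was 8 of 25 (32%), against 89 of 8887 (1.00%). In each accession 5 of these members were in the chromosome 1 stretch. The rest were AT5G28919 with its overlapping neighbour AT5G28920 in both accessions, and DAR4 with CSA1 and AT5G51620 with AT5G51630 in Per-1. Within the stretch, the members AT1G24822 and LpxC2 overlap and were counted as each other's neighbour, so the rule had chosen both. AT1G25098 also overlaps its neighbour AT1G25097. By chromosome, 18 members lay on chromosome 1, 7 on 2, 5 on 3, 9 on 4 and 13 on 5, which was 0.662% of the genes at the Col-0 threshold on chromosome 1 and 0.238% of those on chromosome 3.

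Overlapping genes and close relatives limit the values of some members. Another annotated gene overlapped 24 of 53 members (45.3%), against 3480 of 10561 genes (32.95%). Among members with a protein product, 7 of 38 (18.4%) had a relative at 90% identity or more over at least 80% of the product, against 864 of 10402 (8.31%). Libraries did not mark the strand, so fragments of overlapping genes cannot be told apart.

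The median hybrid to Col-0 ratio of mean FPKM ran from 0.433 to 0.549 over the classes in the hybrid of their own accession. For the Per-1 only genes in Col-0×Per-1, both quartiles lay below 0.5, in a hybrid where the median of all genes was 0.831. Their median was 0.364 without members that overlap another gene. In Col-0×Aa-0 the median ratio was 0.477 for the 14 Aa-0 only genes (quartiles 0.437 and 0.599) and 0.549 for the 22 genes near zero in both (0.459 and 0.628), against 0.922 over all genes at the Col-0 threshold (0.824 and 1.02). For the 17 Per-1 only genes it was 0.828. In Col-0×Per-1 the median was 0.433 for the Per-1 only genes (0.335 and 0.469), 0.533 for those near zero in both (0.466 and 0.660) and 0.935 for the Aa-0 only genes, against 0.831 over all genes (0.709 and 0.950). Over single pairs of a hybrid and a Col-0 library the SD of the class medians was 0.0466 for Aa-0 only (8 pairs), 0.0455 for Per-1 only (8 pairs) and 0.0346 for both (16 pairs, with the mean over the hybrids).

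Ratios of single genes varied around these medians. Of the 36 genes near zero in Aa-0, 27 (75%) had a Col-0×Aa-0 ratio from 0.35 to 0.65, against 5.56% of all genes at the Col-0 threshold. Of the 39 near zero in Per-1, 22 (56.4%) had a Col-0×Per-1 ratio in that range, against 15.5% of all. The lowest were AT1G20390 (0.0432), ZW9 (0.215) and AT2G43550 (0.253) in Col-0×Per-1, and AT4G16870.1 (0.292), AT2G14460 (0.293) and AT1G20390 (0.296) in Col-0×Aa-0. The highest in a gene's own cross were the antisense RNAs AT5G01595 (1.69 in Col-0×Aa-0) and AT4G13505 (1.33 in Col-0×Aa-0, 1.45 in Col-0×Per-1). Other members annotated as antisense were lower: AT4G36808 had 0.824 in Col-0×Aa-0 and 0.994 in Col-0×Per-1, and AT1G25098 had 0.507 and 0.526. Without members that overlap another gene, every ratio was below 1: the highest was 0.641 over 20 genes in Col-0×Aa-0 and 0.794 over 19 in Col-0×Per-1.

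**Figure D3:**
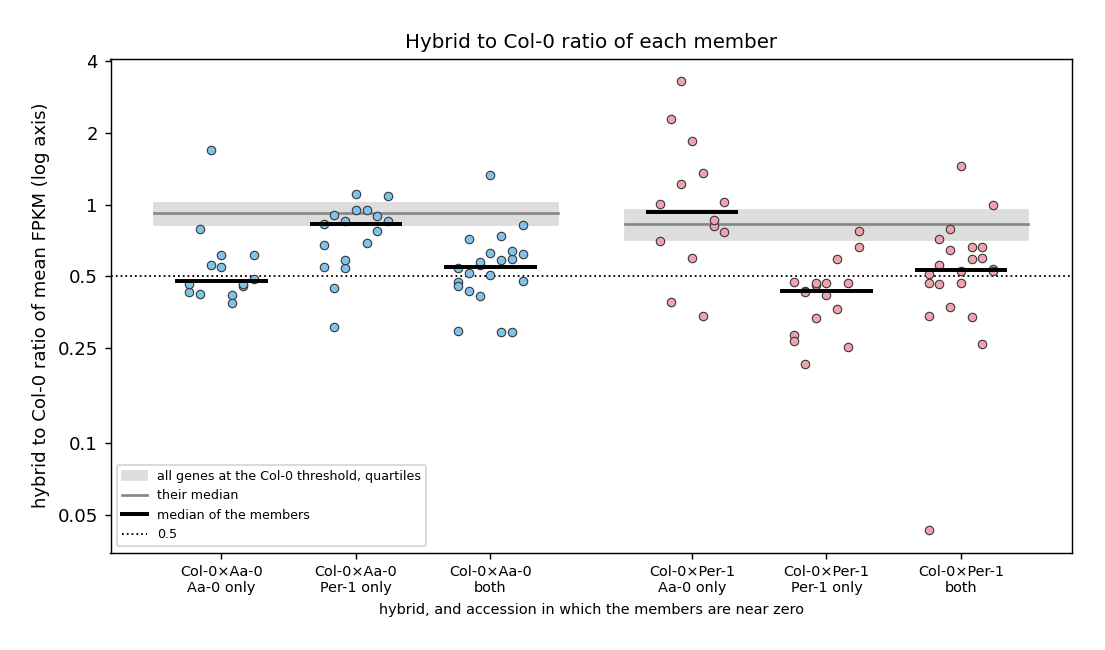
Ratio of mean FPKM in each hybrid to that in Col-0 (log axis), 1 point per near-zero gene, by hybrid and class, with the class median as a black bar. The grey band and line are the quartiles and median of 10561 genes at the Col-0 threshold. Class medians of 0.477 and 0.433 in a gene's own cross lie below those bands, and 0.828 and 0.935 in the other cross lie inside them.

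For genes near zero in both accessions, ratios were also compared between the hybrids, without a test. The ratios of a gene in Col-0×Aa-0 and in Col-0×Per-1, which share the Col-0 libraries as denominator, differed by a median of 0.0755, and by no more than 0.15 for 18 of 22 (81.8%). Over all genes at the Col-0 threshold, whose ratios were higher, the median difference was 0.133, and 55.1% were within 0.15. The widest difference was that of AT1G20390, at 0.253. AT1G63880 had 0.518 and 0.464, PLC8 0.474 and 0.470, LpxC2 0.558 and 0.645, and AT2G14460 0.293 and 0.262.

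A comparison of the hybrids with each other used levels from libraries that took no part in choosing the genes. The spread was estimated over all 12 libraries. Those that the rule had placed near zero vary little and can lower it, so the p-values are not fully independent of the choice. Of the 14 Aa-0 only genes, 5 were lower in Col-0×Aa-0 than in Col-0×Per-1 and 0 were higher (limma with Benjamini-Hochberg adjustment over 17203 genes), where 0.802% of all genes were lower. Of the 17 Per-1 only genes, 4 were lower in Col-0×Per-1 and 0 were higher, where 1.24% of all genes were called in that direction. The estimate was below 0 for 10 of 14 Aa-0 only genes and above 0 for 17 of 17 Per-1 only genes. The median over all genes was itself above 0, at 0.13, so the Per-1 only direction was the commoner one among all genes. Among the 17, AT4G20480 (0.05) lay below that median and UBQ6 (0.13) at it. The median difference was -0.85 and 0.75 on the log2 scale, against 0.13 over all genes and -0.01 for the 22 genes near zero in both. The other 22 genes of these classes were not called.

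AT1G23960 had the largest difference, -2.46 log2 units (SE 0.11, adjusted p = 2.78e-06, limma), in a gene that Per-1 expressed at 5.83 times the Col-0 level. The NLR gene AT1G62630 followed at -1.53 (SE 0.15, adjusted p = 0.000469). AT4G01915, of unknown function, was at -0.94 (SE 0.20, adjusted p = 0.0407), a call lost in 10 of 12 fits without 1 library (adjusted p up to 0.336). Next came AT5G24735 at -0.87 (SE 0.17, adjusted p = 0.0325) and AT3G62530 at -0.83 (SE 0.14, adjusted p = 0.0144). In the other direction were AT3G43740 at 1.12 (SE 0.16, adjusted p = 0.00583), DAR4 at 1.04 (SE 0.15, adjusted p = 0.00491), the pseudogene AT2G13970 at 0.95 (SE 0.13, adjusted p = 0.00468) and AT5G51620 at 0.94 (SE 0.15, adjusted p = 0.0103). Among genes near zero in both, 1 of 22, AT1G20390, differed between the hybrids, where 2.04% of all genes did, at 1.37 (SE 0.19, adjusted p = 0.00435, limma).

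Hybrid libraries decided part of these calls. The 9 calls in the class's direction became 3 without Col-0×Aa-0 replicate 1, 6 without its replicate 2, 6 without Col-0×Per-1 replicate 1 and 2 without its replicate 2. AT1G23960, AT1G62630 and AT1G20390 remained called in all 12 fits that left out 1 library, with a highest adjusted p of 0.000114, 0.00785 and 0.0490 (limma). With Col-0 replicates 1 and 2 as the only Col-0 libraries in the fit, 17 genes were called, and with replicates 3 and 4 it was 16.

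**Figure D4:**
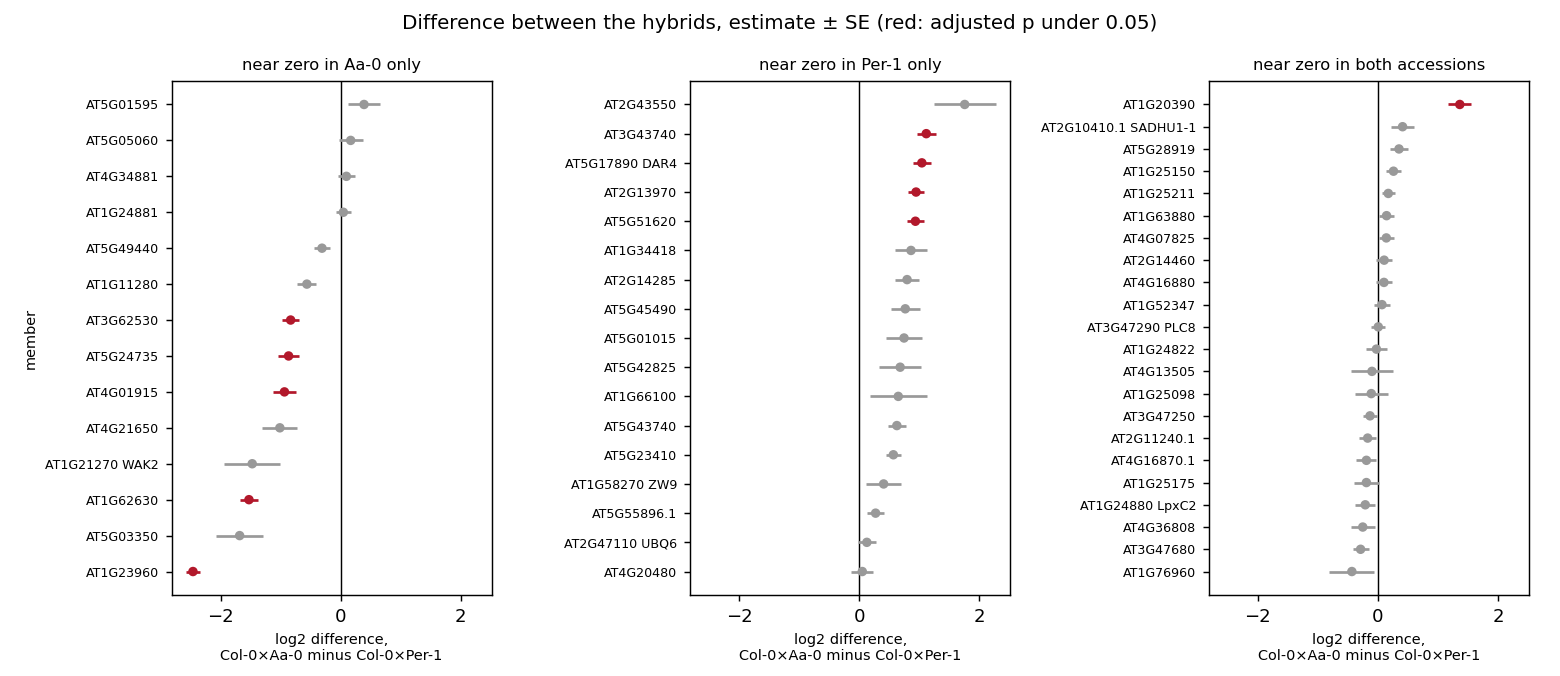
Log2 difference between the hybrids (Col-0×Aa-0 minus Col-0×Per-1) for each near-zero gene, with its standard error as a line, by class, red where the limma adjusted p was under 0.05. Aa-0 only genes lie mostly left of 0 (5 called), Per-1 only genes lie right of 0 (4 called), and genes near zero in both lie around 0 with AT1G20390 apart.

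Against Col-0, most near-zero genes were lower in the hybrid of the same cross. The Col-0 libraries helped to choose the genes through the 5 FPKM threshold, so these counts and differences are a description and no independent test. In Col-0×Aa-0, 24 of the 36 genes near zero in Aa-0 were lower and 0 higher (limma), where 1.17% of all genes were lower and 1.13% higher. Of these, 10 were among the 14 Aa-0 only genes and 14 among the 22 near zero in both. Of the 17 Per-1 only genes, 3 were called lower in Col-0×Aa-0: ZW9, AT4G20480 and AT5G55896.1. These were themselves low in Aa-0, with means of 0.47, 0.995 and 0.40 FPKM. In Col-0×Per-1, 32 of the 39 genes near zero in Per-1 were lower and 0 higher, where 17.3% of all genes were lower and 2.66% higher. These were 15 of 17 Per-1 only genes and 17 of 22 near zero in both. The 2 comparisons share the Col-0 libraries. The 24 became 14 without Col-0×Aa-0 replicate 2. The 32 became 20 without Col-0×Per-1 replicate 2 and 21 after quantile normalization. With Col-0 replicates 1 and 2 alone, the counts were 27 in Col-0×Aa-0 and 31 in Col-0×Per-1. With replicates 3 and 4 alone they were 27 and 33.

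By range, both Col-0×Aa-0 libraries lay below all Col-0 libraries for 30 of 36 genes near zero in Aa-0, where 20.1% of all genes tested did so. For Col-0×Per-1 it was 36 of 39 near zero in Per-1, where 39.1% did so. The NLR gene AT1G63880 was 0.89 log2 units (SE 0.10) lower than Col-0 in Col-0×Aa-0 and 1.04 (SE 0.10) lower in Col-0×Per-1. SADHU1-1 was 1.04 lower (SE 0.17) in Col-0×Per-1, and its estimate of -0.63 (SE 0.17) in Col-0×Aa-0 was not called. The difference between its hybrids did not pass (0.41, SE 0.20, limma adjusted p = 0.315).

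Of the 14 Aa-0 only genes, Col-0×Per-1 was called above Col-0 for 3 (limma), where 2.66% of all genes were. AT1G23960 was higher by 1.67 (SE 0.10), WAK2 by 1.30 (SE 0.41) and AT1G62630 by 0.42 (SE 0.13). Per-1 exceeded Col-0 in mean level for each of them, by 5.83, 2.83 and 1.51 times. The call of WAK2 was close to the threshold, and its pairs of Col-0 libraries did not overlap. Another 3 were lower: AT4G34881, AT5G05060 and AT1G24881. As 17.3% of all genes were lower in this hybrid, that count is not read as a trait of the class.

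Set against the mid-parent, most near-zero genes did not pass the test in the hybrid of their cross. The mid-parent was the mean of the parents' levels, so for a near-zero gene it lies close to the middle of Col-0 and zero. Both parents' values chose the genes, so these calls too are a description and are given without p-values. In Col-0×Aa-0, 1 of 36 genes near zero in Aa-0 was called (limma), as higher, where 0.238% of all genes were called (0.11% lower and 0.128% higher). In Col-0×Per-1, 6 of 39 near zero in Per-1 were called, 3 lower and 3 higher, where 2.57% of all genes were (2.2% lower and 0.366% higher). The 6 became 3 without Col-0 replicate 1, 3 without replicate 3 and 2 without replicate 4, 2 and 3 without Per-1 replicate 1 or 2, and 2 and 1 without the first or second replicate of that hybrid. The median deviation was 0.07 log2 units for the 36 and -0.07 for the 39, against -0.05 and -0.14 over all genes tested. A p that misses the threshold does not show that the levels were equal.

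In Col-0×Per-1, the estimate lay under the mid-parent for 22 of the 39 genes near zero in Per-1. The 3 called there were AT1G20390 (-1.93, SE 0.16), AT3G43740 (-0.73, SE 0.14) and AT2G14460 (-0.70, SE 0.11). AT1G20390 kept its call in all 20 alternatives. AT2G14460 passed in 14 of 20, and among fits without 1 library it lost its call without either Col-0×Per-1 library. AT3G43740 passed in 11 of 20: its call was lost without Col-0 replicate 3 or 4, Per-1 replicate 1 or Col-0×Per-1 replicate 2, under median-ratio scaling, quantile normalization and a replicate block, and with Col-0 replicates 1 and 2 alone. With log2 values averaged over the parents, both AT3G43740 (0.18) and AT2G14460 (0.0125) lay on the other side.

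Members called above a mid-parent were UBQ6 and 3 antisense RNAs. Estimates above it, mostly not called, were found for 19 of 36 genes near zero in Aa-0 in Col-0×Aa-0. In Col-0×Per-1 it was 17 of 39 near zero in Per-1. UBQ6 was 0.61 (SE 0.13) above it in Col-0×Per-1, with 41.5 and 47.2 FPKM there and 40.6 and 57.8 in Col-0×Aa-0, so that hybrid to Col-0 ratios were 0.772 and 0.855. The next annotated gene, AT2G47115, ran the other way: 6.53 to 7.55 in Col-0, against 34.5 and 34.1 for Aa-0, 43.6 and 38.8 in Per-1, and between 5.5 and 6.98 in the hybrids. Hybrids of both crosses were thus close to Col-0 at both genes. The product of UBQ6 is 98.1% identical to that of AT3G62250. Whether fragments of these adjacent genes were assigned alike in every library cannot be told from FPKM, so the near-zero values of UBQ6 in the accessions are uncertain. The part of the neighbour and of the copy was not tested.

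AT4G13505, antisense to the ammonium transporter gene AMT1;1, was at 8.22, 6.83, 18.2 and 11.04 FPKM in Col-0, no more than 0.03 in either accession, with 13.01 and 16.5 for Col-0×Aa-0 and 19.2 and 12.9 for Col-0×Per-1. It was 1.43 (SE 0.30) above the mid-parent for Col-0×Per-1. AMT1;1 was at 19.4 to 41.2 in Col-0, against 46.4 and 36.4 for Aa-0 and 82.9 and 87.3 for Per-1. AT5G01595, antisense to the ferritin gene FER1, was at 10.5, 8.81, 9.32 and 5.74 in Col-0, against 0 and 0.06 for Aa-0, 0.27 and 0.28 for Per-1, with 10.6 and 18.5 for Col-0×Aa-0 and 11.2 and 9.83 for Col-0×Per-1. It was above the mid-parent by 1.53 (SE 0.23) in Col-0×Aa-0 and by 1.11 (SE 0.23) in Col-0×Per-1. FER1 was at 43.8 to 77.2 in Col-0, against 103 and 154 for Aa-0 and 75.6 and 115 for Per-1. AT4G36808, antisense to the geranylgeranyl diphosphate synthase gene GGPS1, was at 5.75 to 8.83 in Col-0, listed at 0 in both accessions, and at 6.39 and 7.69 in Col-0×Per-1. It lay 0.83 (SE 0.17) above that hybrid's mid-parent.

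GGPS1 itself was at 35.4 to 52.7 FPKM in all 12 libraries. As the libraries did not mark strand, the antisense RNAs and their partners cannot be told apart. These calls were not stable. In 12 fits without 1 library each, UBQ6 lost its call in 10, AT4G13505 in 11 and AT4G36808 in 7. AT5G01595 lost its call in 10 for Col-0×Aa-0 and in 8 for Col-0×Per-1. Some calls were lost without a library outside the comparison. Without Aa-0 replicate 1, UBQ6 and AT4G13505 lost theirs although the Col-0×Per-1 estimates stayed at 0.61 and 1.43.

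**Figure D5:**
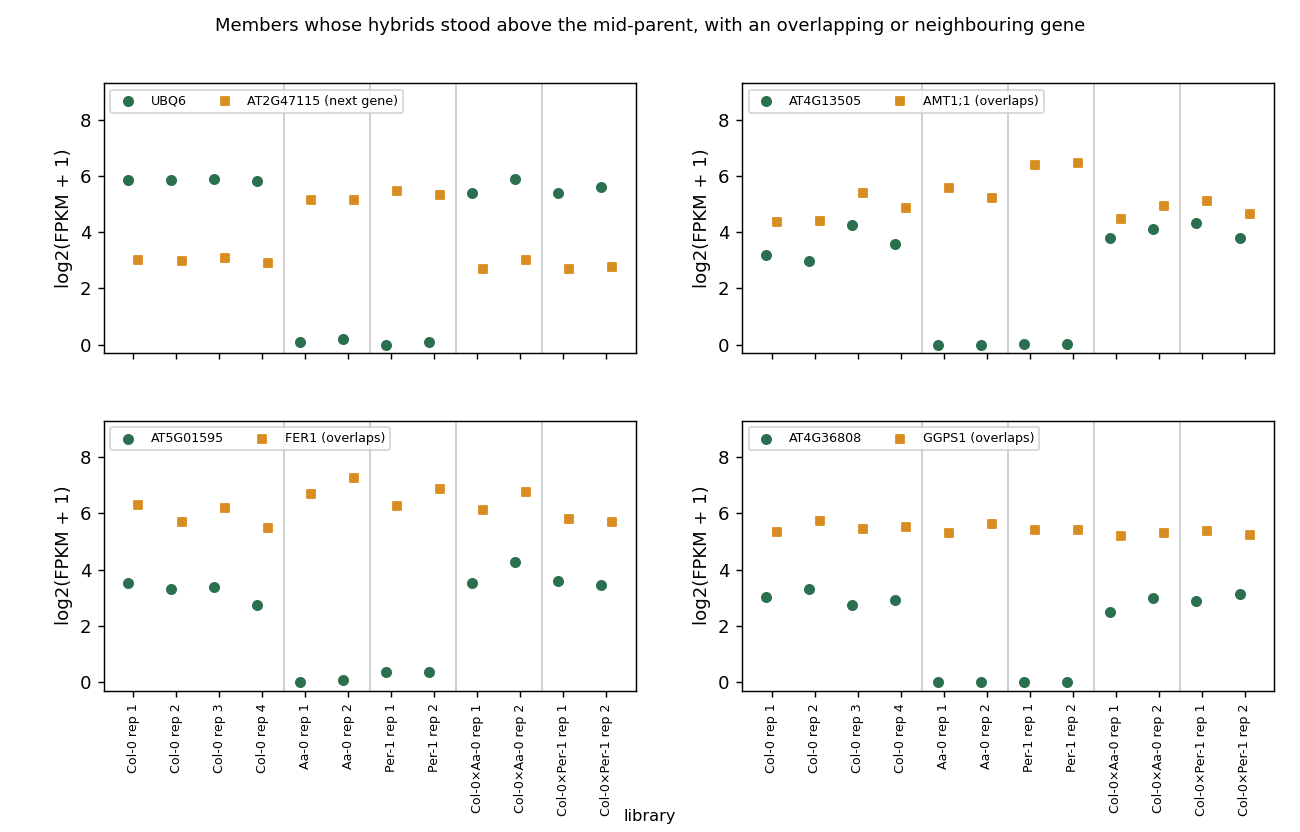
Levels as log2(FPKM + 1) in each of the 12 libraries for 4 near-zero genes called above a mid-parent (circles) and an overlapping or next annotated gene (squares). All 4 accession libraries of UBQ6 are at or below 0.15 FPKM where AT2G47115 is at 34.1 FPKM or more, and the hybrids resemble Col-0, while GGPS1 is level across groups.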

How the data were processed

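The authors deposited FPKM values with 2 decimals, which were analysed as given. The submitters' processing notes list TopHat2 2.0.8b and TopHat, Cufflinks 2.0.2 and edgeR 3.12.0, with TAIR10 as genome build. The tool that made the FPKM, and the scaling of libraries, were not given in the sources used here. With no counts, depth is unknown and no counting interval is given. RNeasy columns and the TruSeq v2 kit were used, per the labels' protocols.

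The members and lists were chosen with earlier results of these data known. Of the identifiers meeting the rule, 1 is not reported here. Named genes followed a written rule (highest in Col-0, extreme ratios, calls, families, threshold); AT2G47115, AT1G23950, AT1G24800, CSA1, RPP4, SNC1, XDH1 and members given for their calls or Per-1 and Aa-0 levels were added after values were seen.

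R 4.3.3 and limma 3.58.1 (eBayes with trend) were run on log2(FPKM + 1) for the 17203 genes that reached 1 FPKM in 2 or more libraries, so all 53 members passed through Col-0. Fold changes on this scale understate those of low genes. A group-means fit of 12 libraries left 7 residual degrees of freedom. A call needed an adjusted p (Benjamini-Hochberg) below 0.05. For the mid-parent, parental levels were averaged before taking log2, with delta-method errors. The fit was tested on simulated data. Names, order and overlaps came from the TAIR10.1 annotation (32815 identifiers matched, 1318 not), without coordinates. Protein identity came from BLASTP 2.17.0. Alternatives covered the pseudocount, filter, scaling, replicates, Col-0 pairs and thresholds.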

Additional observations from a re-analysis of the deposited data

Results flagged for a closer look

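Between the hybrids, the pseudogene AT1G20390 differed by 1.37 log2 units although both parents other than Col-0 were listed at 0. The same comparison called 5 genes near zero in Aa-0 only lower in Col-0×Aa-0 and 4 genes near zero in Per-1 only lower in Col-0×Per-1, so members of these classes differed between the crosses in opposite directions.

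Among the 4 Col-0 libraries, 1 lay far from the other 3 for a pair of members. AT2G11240.1, a pseudogene, was at 9.55 FPKM in replicate 3, against 11.4 to 11.7 in the others. AT2G14460 was at 7.03 FPKM in replicate 1, against 8.29 to 8.45. By chance about 1 in 20 groups holds such a library.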

How the results depend on the processing

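The count of members below Col-0 in Col-0×Per-1 fell from 32 to 21 after quantile normalization. It was 18 of the 19 members that overlap no other gene. In Col-0×Aa-0 they were 19 to 27 of 36 under the alternatives that kept all members and left out no single library. They were 18 of the 20 members that overlap no other gene. With 1 library left out, calls ranged from 14 to 26 against Col-0 in Col-0×Aa-0, from 20 to 34 in Col-0×Per-1, from 0 to 1 and from 1 to 6 against the mid-parents, and from 2 to 10 between the hybrids.

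Calls against the mid-parent moved with its definition. With log2 values averaged instead of levels, which sets a near-zero gene's mid-parent near the square root of its Col-0 level, calls rose from 1 to 27 in Col-0×Aa-0 and from 6 to 30 in Col-0×Per-1, and AT2G14460 (0.0125) and AT3G43740 (0.18) turned to the other side. Calls in Col-0×Aa-0 were 0 with a pseudocount of 0.1 FPKM, 0 of the 20 without an overlapping gene and 5 with Col-0 replicates 1 and 2 alone. In Col-0×Per-1 they were 3 with no filter on low values and 3 of the 19 without an overlapping gene, and 9 with Col-0 replicates 3 and 4 alone. Between the hybrids, 17 and 16 were called with either Col-0 pair alone. Col-0 enters that comparison only through the spread. The estimates of AT1G20390 (1.37) and AT1G23960 (-2.46) were the same with either pair. The cause of the shifts against the mid-parents was not tested.

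Replicate numbers did not pair the samples: deviations of same-numbered libraries correlated from -0.585 to 0.369 between groups. With a replicate block, calls were 27 and 30 against Col-0, 5 and 4 against the mid-parents, and 14 between the hybrids.

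The median ratio became 0.520 for Per-1 only and 0.615 for both under median-ratio scaling, 0.364 and 0.481 without overlapping members, and 0.493 for Per-1 only with Col-0 replicates 1 and 2 alone. Leaving out 1 library gave 0.433 to 0.548 for Aa-0 only, 0.406 to 0.476 for Per-1 only and 0.524 to 0.567 for both. Member numbers (Aa-0 only, Per-1 only, both) were 7, 9 and 13 at 10 FPKM in Col-0, 24, 34 and 53 at 2 FPKM, 23, 23 and 29 at up to 0.5 FPKM in the accession, and 9, 13 and 6 when listed at 0. Without 1 library they ranged from 14 to 17, 15 to 21 and 22 to 24.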
